A study of Mus musculus with 16 samples.

Results

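The 10 Notch pathway genes described here were taken by symbol from a table of 49315 Ensembl gene identifiers: the receptors Notch1, Notch2 and Notch3, the ligands Jag1, Jag2 and Dll1, and the target genes Hes1, Hey1, Heyl and Nrarp. Their levels were compared across 8 groups of murine tracheal epithelial cell cultures (MTECs), which are primary airway cells grown on porous inserts and differentiated at an air-liquid interface. The groups were male and female, WT or labelled KO for LMAN1, and naive or treated overnight with house dust mite extract (HDM, the allergen of the study's asthma model) at 20 µg/ml. Each group held 2 libraries that the labels call biological replicates, which gave 16 libraries in all. The WT and LMAN1 KO mice were littermates from heterozygous breeding on a C57BL/6J background, and every culture shares that background. Tracheas were pooled to set up the cultures, so a library stands for a pool of mice and not for a single mouse, and the age of the mice behind the cultures is not given in the sources used here. The p-values therefore measure the spread between these cultures.

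Notch receptors sit in the cell membrane and are activated by Jagged or Delta ligands on a neighbouring cell. Cleavage then frees the intracellular part of the receptor, which enters the nucleus, joins the DNA-binding protein RBPJ and switches on target genes such as the Hes and Hey repressors and Nrarp, an inhibitor that feeds back on the pathway. In the airway the pathway is known for its part in how basal progenitor cells form secretory rather than ciliated cells.

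Library totals ran from 21860698 to 43442188 counts. Levels are given as CPM, the usual library-scaled counts, with library sizes adjusted by TMM factors. Lman1, the gene that the label KO refers to, averaged 121 CPM ± 14.3 (SD, n = 8) in the WT libraries. Of the 8 libraries labelled KO, the female naive pair held 10.6% and 10.6% of that mean and male naive replicate 1 held 11.8%. The other 5 held 52.6% to 64.8%, among them both female and both male HDM libraries. The Lman1 transcript was thus not uniformly low in the groups labelled KO, and which part of the gene the KO allele lacks is not given in the sources used here. Every direction given below for cultures labelled KO rests on these labels. All 8 male libraries held more Ddx3y than any female library, as the labels give their sex. Of the epithelial markers, Krt5 (628 to 5870 CPM), the ciliated cell gene Foxj1 (44.8 to 97.5 CPM) and the club cell enzyme Cyp2f2 (3750 to 18900 CPM) were present in every library. The other ciliated cell markers were lower. Tppp3 was at 1.96 to 23.5 CPM, Ccno at 0.237 to 11.9 CPM and Cfap126 at 2.32 to 11.6 CPM. Dnah5 was at 1.43 to 11.4 CPM and Mcidas at 0 to 5.79 CPM. The other club cell markers were uneven, with Scgb3a1 at 4.54 to 693 CPM, Scgb3a2 at 3.25 to 357 CPM, Cldn10 at 0.0807 to 4.96 CPM and Scgb1a1, the defining secretoglobin, at 0.0474 to 3.75 CPM. The T cell marker Cd3e was at 3 counts or fewer in all 16 libraries. Summed levels of 6 fibroblast markers ran from 2.39 to 577 CPM and differed between replicates, with 25.9 and 525 CPM in the female WT naive pair, 47.5 and 577 CPM in the female WT HDM pair and 3.84 and 154 CPM in the male WT naive pair.

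All 10 members passed the filter on low counts. The receptors were Notch1 (ENSMUSG00000026923, chr2:26457903-26516663), Notch2 (ENSMUSG00000027878, chr3:98013527-98150361) and Notch3 (ENSMUSG00000038146, chr17:32120820-32166852). The ligands were Jag1 (ENSMUSG00000027276, chr2:137081456-137116644), Jag2 (ENSMUSG00000002799, chr12:112907819-112929776) and Dll1 (ENSMUSG00000014773, chr17:15367354-15376872). The targets were Hes1 (ENSMUSG00000022528, chr16:30064384-30067796), Hey1 (ENSMUSG00000040289, chr3:8663359-8667256), Heyl (ENSMUSG00000032744, chr4:123233556-123249875) and Nrarp (ENSMUSG00000078202, chr2:25180758-25183339). Positions are on GRCm38, all 10 are annotated as protein-coding genes, and the counts cover their exons. Dll1 (13685 counts over all libraries) overlaps the antisense gene A930024N18Rik (701 counts) and Notch1 (87526 counts) overlaps the antisense gene 0610009E02Rik (235 counts). The strand setting of the counting is not given, so reads of these genes cannot be told apart where they overlap.

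Per kilobase of annotated exon, Hes1 was the most abundant member, with a median over the 16 libraries of 60.3 CPM per kb, followed by Jag2 with 21.1 CPM per kb. Jag1 had a median of 14.3, Notch2 13.9, Hey1 12.0, Notch1 11.9 and Notch3 10.9 CPM per kb. Dll1, with a median of 6.56 CPM per kb, lay below the other ligands and the receptors, and Nrarp had a median of 2.96 CPM per kb. Heyl was close to absent, with 114 counts over all libraries and more than 3 counts in 8 of them. Heyl aside, the level of Hey1 varied most in proportion, from 0.551 to 20.8 CPM per kb, while that of Notch2 stayed between 10.5 and 17.9 CPM per kb. In absolute terms Hes1 spanned more, from 37.5 to 64.2 CPM per kb.

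**Figure D1:**
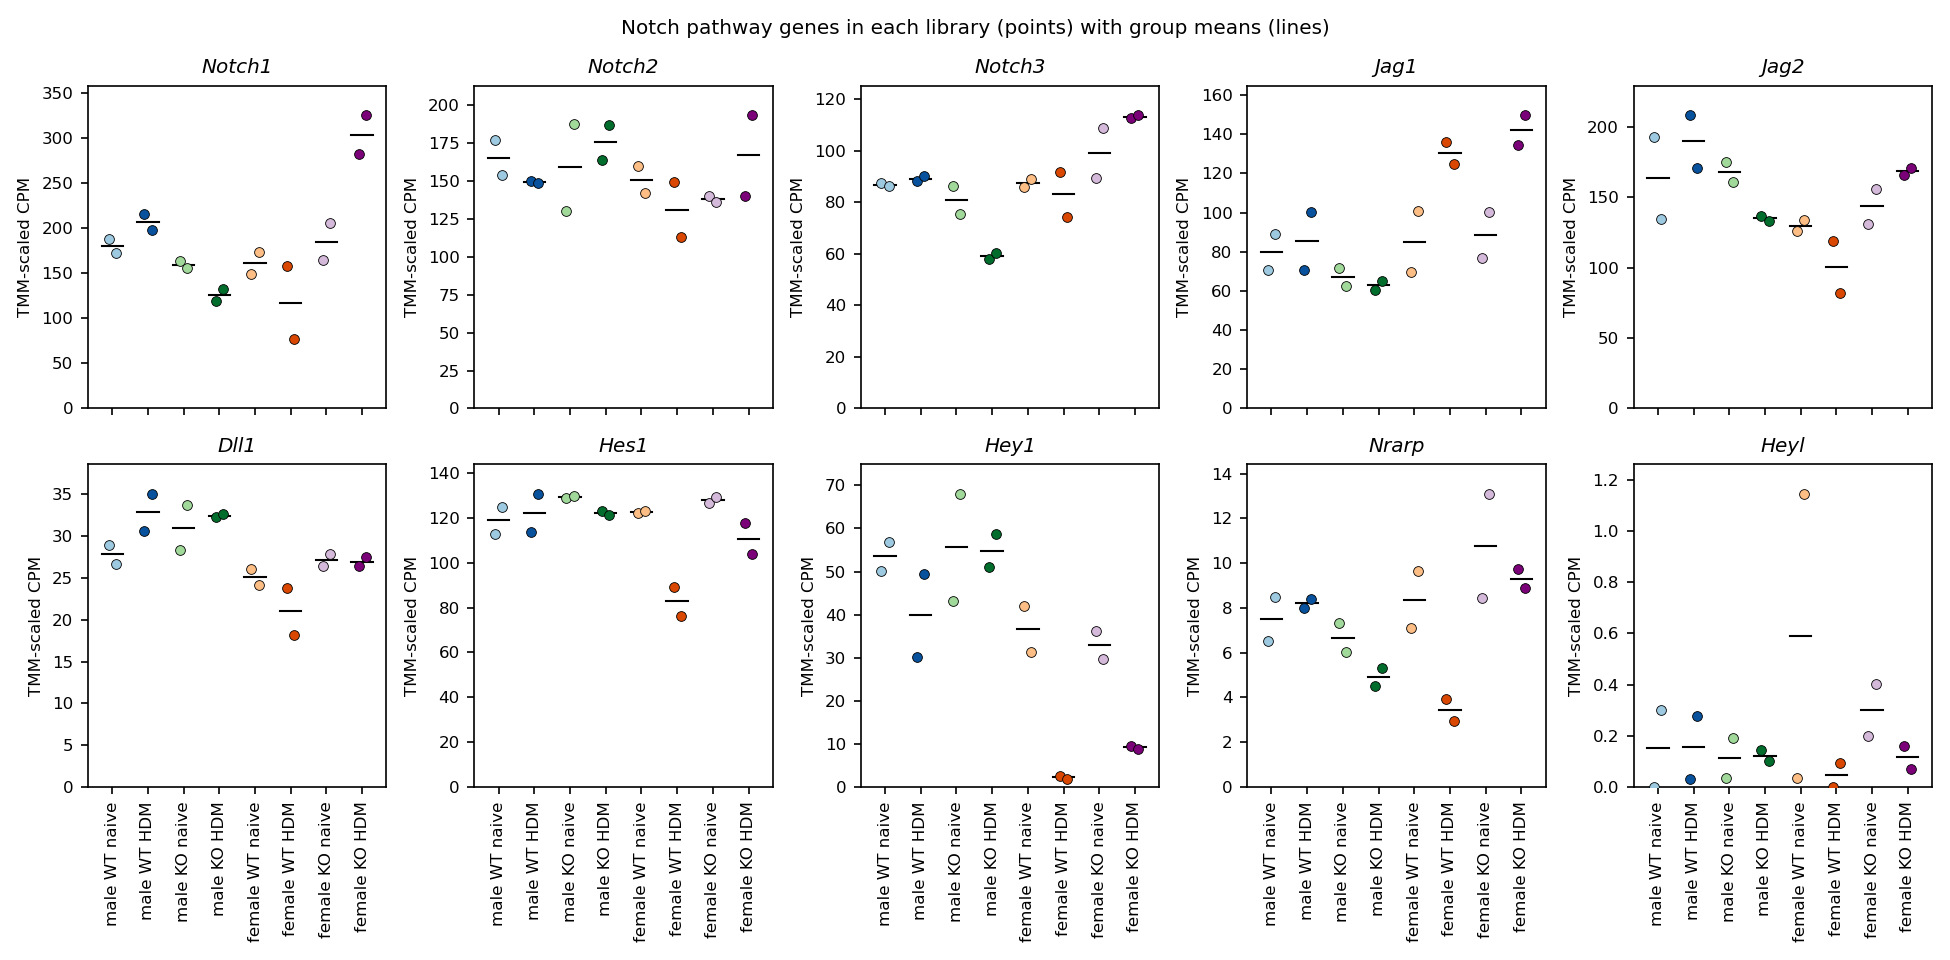
TMM-scaled CPM (y axis, from 0) of the 10 Notch pathway genes in the 8 groups (x axis, KO as labelled), with a point for each library and a line for the mean of the 2 libraries. Hey1 sits between 1.80 and 9.60 CPM in the 4 female HDM libraries and between 29.8 and 68.0 CPM in the other 12.

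RefSeq promoter windows matched 7 of the 10 members (8 windows, GRCm38.p6). Hes1, Hey1 and Heyl were not matched. The 250 bases before the start of Nrarp, Notch1 and Notch3 are printed because these genes changed in the comparisons below and because at most 2 bases of each window lie in annotated exons. The Notch1 window belongs to a RefSeq start that lies inside the longer span given above. Capitals mark CACGTG, an E-box word that reads the same on both strands.
Nrarp, chr2:25180508-25180757, plus strand: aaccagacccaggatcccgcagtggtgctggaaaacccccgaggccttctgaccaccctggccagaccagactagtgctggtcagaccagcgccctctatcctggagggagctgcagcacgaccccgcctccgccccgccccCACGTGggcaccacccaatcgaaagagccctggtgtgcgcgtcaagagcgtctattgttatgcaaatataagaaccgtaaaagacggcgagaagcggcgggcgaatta
Notch1, chr2:26503823-26504072, minus strand: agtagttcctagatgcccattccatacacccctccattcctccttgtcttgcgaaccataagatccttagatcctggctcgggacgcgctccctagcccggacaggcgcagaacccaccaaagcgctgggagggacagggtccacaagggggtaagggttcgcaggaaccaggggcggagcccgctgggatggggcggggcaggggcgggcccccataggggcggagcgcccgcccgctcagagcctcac
Notch3, chr17:32166891-32167140, minus strand: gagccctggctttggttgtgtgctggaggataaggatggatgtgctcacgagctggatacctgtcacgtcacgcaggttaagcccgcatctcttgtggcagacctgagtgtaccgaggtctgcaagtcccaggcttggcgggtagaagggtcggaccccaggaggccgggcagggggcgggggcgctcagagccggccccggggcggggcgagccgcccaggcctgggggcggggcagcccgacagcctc
CACGTG was found in 1 of the member windows, 108 bases before the start of Nrarp, and 6.02% of all 32851 upstream windows of this length held it. The word TGGGAA, the core of the motif that RBPJ binds, was searched on both strands and was in 0 of the 8 member windows, against 21.6% of all windows. The printed windows hold 61.2%, 66.0% and 68.8% G and C in Nrarp, Notch1 and Notch3.

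The first comparison asked what HDM did in female WT cultures. Of the 10 members, 4 passed the test (edgeR's quasi-likelihood test, adjusted p under 0.05), 1 higher and 3 lower, where 43.1% of all 15993 genes tested passed it. The median log2 fold change was -0.42 over the members and -0.02 over all genes. The 3 that fell were the targets Hey1, Nrarp and Hes1, and the ligand Jag1 rose. Since the libraries are bulk RNA, fewer cells of a type and less RNA per cell cannot be told apart in any of these results.

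Hey1, a transcriptional repressor of the Hes and Hey family, fell the most. It stood at 42.1 and 31.4 CPM in the female WT naive libraries and at 2.66 and 1.80 CPM in the HDM libraries. The groups were far apart, and the HDM values came from 64 and 38 counts. The log2 fold change was -4.03 ± 0.32 (SE), a 16.3-fold lower level (edgeR, adjusted p = 3.69e-06). Leaving out any 1 of the 4 libraries kept the call, with values from -4.35 to -3.78. In the female cultures labelled KO, Hey1 stood at 36.2 and 29.8 CPM when naive and at 9.60 and 8.88 CPM with HDM. It also fell there, by 1.84 ± 0.27 (SE) on the log2 scale (edgeR, adjusted p = 0.0024), and again with each library left out (-1.97 to -1.69).

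Nrarp, a feedback inhibitor of Notch signalling, held 7.08 and 9.64 CPM in the female WT naive libraries and 3.95 and 2.94 CPM with HDM. The groups did not overlap and the level fell by 1.28 ± 0.25 (SE) on the log2 scale (edgeR, adjusted p = 0.00168). In female cultures labelled KO it held 8.43 and 13.1 CPM when naive and 9.73 and 8.88 CPM with HDM, where the libraries overlapped and the log2 fold change was -0.21 ± 0.24 (SE; edgeR, adjusted p = 0.628). Hes1, the repressor most often used as a readout of Notch activity, held 122 and 123 CPM in female WT naive and 89.2 and 76.4 CPM in female WT HDM. Both HDM libraries were the lowest of the 16 for this gene, and the level fell by 0.57 ± 0.09 (SE) on the log2 scale (edgeR, adjusted p = 0.000509). In female cultures labelled KO the Hes1 values were 127 and 129 CPM when naive and 118 and 104 CPM with HDM, a log2 fold change of -0.21 ± 0.09 (SE) that did not pass (edgeR, adjusted p = 0.174). Heyl, the remaining target, held 1 and 51 counts in female WT naive and 0 and 2 counts in female WT HDM. The library with 51 counts also held 525 CPM of fibroblast markers, and female WT HDM replicate 2, with 577 CPM of them, held 2 Heyl counts. The part of these markers was not tested. No fold is given because the other female WT naive library was at the floor of 3 counts.

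Jag1, a Jagged ligand, moved opposite to the targets. Its levels were 69.7 and 101 CPM in female WT naive and 136 and 125 CPM in female WT HDM, so that both HDM libraries lay above both naive ones. The log2 fold change was 0.61 ± 0.20 (SE; edgeR, adjusted p = 0.0283). The call was lost with library size scaling alone (0.53, adjusted p = 0.0573), without naive replicate 1 (0.37, adjusted p = 0.235), without HDM replicate 1 (0.54, adjusted p = 0.112) and without HDM replicate 2 (0.67, adjusted p = 0.0681). In female cultures labelled KO the levels were 76.9 and 101 CPM when naive and 134 and 150 CPM with HDM, a log2 fold change of 0.68 ± 0.20 (SE) that missed the threshold (edgeR, adjusted p = 0.0532) and passed it in DESeq2 (adjusted p = 0.00969). The difference between the 2 female responses of Jag1 was 0.07 ± 0.28 (SE, log2, labelled KO minus WT; edgeR, adjusted p = 0.903). Jag2, the other Jagged ligand, held 126 and 134 CPM in female WT naive and 119 and 81.8 CPM in female WT HDM (log2 fold change -0.37 ± 0.18, SE; edgeR, adjusted p = 0.124). Dll1, the Delta ligand of the set, held 26.1 and 24.2 CPM when naive and 23.9 and 18.2 CPM with HDM (-0.25 ± 0.13, SE; edgeR, adjusted p = 0.129). Neither passed, and in each case HDM replicate 2 was the lowest of all 16 libraries.

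The receptors did not pass the test in female WT cultures. Notch1 held 150 and 174 CPM when naive and 158 and 76.8 CPM with HDM, so 1 HDM library lay within the naive range and the other far below it. The log2 fold change was -0.46 ± 0.24 (SE; edgeR, adjusted p = 0.148), which became -1.08 (adjusted p = 0.000431) without HDM replicate 1 and -0.03 (adjusted p = 0.9) without HDM replicate 2. The result thus depended on which of these libraries was kept. Without HDM replicate 1, Jag2 (-0.68, adjusted p = 0.0195) and Dll1 (-0.47, adjusted p = 0.016) also passed, and 6 members did in all. Beside these values, HDM replicate 2 held 628 CPM of the basal keratin Krt5 against 1700 CPM in replicate 1, and 577 against 47.5 CPM of fibroblast markers, whose part in the difference was not tested. Notch2 held 160 and 142 CPM when naive and 149 and 113 CPM with HDM, and Notch3 held 86.0 and 88.9 CPM when naive and 91.7 and 74.4 CPM with HDM, with adjusted p of 0.409 and 0.611 in edgeR.

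In female cultures labelled KO, 1 of the 10 members passed, against 10.4% of all genes tested, and it was Hey1 (above). The median log2 fold change over the members was 0.09. At an unadjusted p under 0.05 there were 4 members, and DESeq2 called 3, Notch1, Jag1 and Hey1. Of all 15993 genes, 4129 were below that unadjusted p and DESeq2 called 2106. Notch1 stood at 165 and 206 CPM when naive and at 283 and 326 CPM with HDM, the highest pair of the 8 groups. Its log2 fold change of 0.72 ± 0.24 (SE) missed the threshold in edgeR (adjusted p = 0.085) and passed it in DESeq2 (adjusted p = 0.021). Lman1 differed between the same libraries, at 12.8 and 12.8 CPM when naive and 66.6 and 78.1 CPM with HDM (edgeR, adjusted p = 0.00744), so HDM and the Lman1 level cannot be told apart in this comparison.

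In male cultures, 0 of the 10 members passed the edgeR test for an HDM response, either in WT or in those labelled KO, and 0% of all 15993 genes did so in each. At an unadjusted p under 0.05 the counts were 0 members in male WT and 1 in male cultures labelled KO, and DESeq2 called 0 in both. Over all 15993 genes 665 and 857 were below that limit, and DESeq2 called 2 and 1. The member below that limit was Notch3, with 86.5 and 75.3 CPM in naive and 58.1 and 60.2 CPM in HDM libraries labelled KO (log2 fold change -0.45 ± 0.11, SE; edgeR, adjusted p = 0.781). Hey1 held 50.2 and 57.0 CPM in male WT naive and 30.2 and 49.4 CPM in male WT HDM (-0.43 ± 0.25, SE; edgeR, adjusted p = 0.936). In male cultures labelled KO it held 43.2 and 68.0 CPM when naive and 51.0 and 58.7 CPM with HDM (-0.02 ± 0.25, SE; edgeR, adjusted p = 0.986). In the male group labelled KO the naive and HDM libraries thus overlapped for Hey1, and in male WT both HDM libraries lay below both naive ones without passing the test.

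Whether the HDM response differed between the sexes was tested as an interaction. In WT, 3 members passed, against 24.2% of all genes, and these were Hey1 (male minus female response 3.60 ± 0.41, SE, log2; edgeR, adjusted p = 0.000134), Nrarp (1.41 ± 0.34, adjusted p = 0.0124) and Hes1 (0.61 ± 0.13, adjusted p = 0.00608). All 3 are targets that fell in the female and did not pass in the male. The Hey1 and Hes1 calls held with any 1 of the 8 libraries left out, and the Nrarp call was lost without female WT HDM replicate 2 (1.21, adjusted p = 0.057). Leaving out female WT HDM replicate 1 instead raised the number of members that passed to 6. Among cultures labelled KO, 2 members passed, against 3.56% of all genes. Hey1 (1.82 ± 0.37, SE; edgeR, adjusted p = 0.0235) fell in the female and changed by -0.02 in the male. Notch3 (-0.64 ± 0.15, SE; edgeR, adjusted p = 0.0417) had the lower response in the male. Both calls were lost when any 1 of 6 of the 8 libraries was left out, that is male naive replicate 1, either male HDM replicate, female naive replicate 1 or either female HDM replicate. The values without them ran from 1.52 to 1.91 for Hey1 (adjusted p 0.0623 to 0.121) and from -0.67 to -0.51 for Notch3 (adjusted p 0.0999 to 0.185). The Notch3 call was also lost with library size scaling alone (-0.60, adjusted p = 0.0501). DESeq2 called 3 members here, Notch1 being the addition, and 1192 of all 15993 genes. Lman1 was uneven among the naive libraries labelled KO, at 12.8 and 12.8 CPM in the female and 14.2 and 63.4 CPM in the male. Its own interaction did not pass (-1.75 ± 0.64, SE; edgeR, adjusted p = 0.163). Sex and the Lman1 level therefore cannot be told apart in the interaction among cultures labelled KO.

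Whether the HDM response differed between the genotypes as labelled was tested in the same way. Lman1 itself passed this test in the female (labelled KO minus WT response 2.67 ± 0.64, SE, log2; edgeR, adjusted p = 0.0238). A different HDM response and the unlike Lman1 levels of the female libraries labelled KO therefore cannot be told apart. In the female, 2 members passed, against 11.2% of all genes: Hey1 (labelled KO minus WT response 2.19 ± 0.42, SE, log2; edgeR, adjusted p = 0.00946), which fell less in the cultures labelled KO, and Notch1 (1.18 ± 0.34, SE; edgeR, adjusted p = 0.0484). The Hey1 call was lost without female WT HDM replicate 2 (1.95, adjusted p = 0.0602). The Notch1 call was lost with the compared libraries alone (1.17, adjusted p = 0.0868) and without any 1 of 7 of the 8 libraries (0.75 to 1.35, adjusted p 0.062 to 0.156), the exception being female WT HDM replicate 1 (1.80, adjusted p = 0.000443). Nrarp missed the threshold in edgeR (1.07 ± 0.34, SE; adjusted p = 0.0662) and passed in DESeq2, which called 3 members and 2391 of all 15993 genes. In the male, 0 members passed in edgeR and 0% of all genes did, with 1 member at an unadjusted p under 0.05 and 0 called by DESeq2. Of all 15993 genes, 1388 were below that unadjusted p and DESeq2 called 0.

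**Figure D2:**
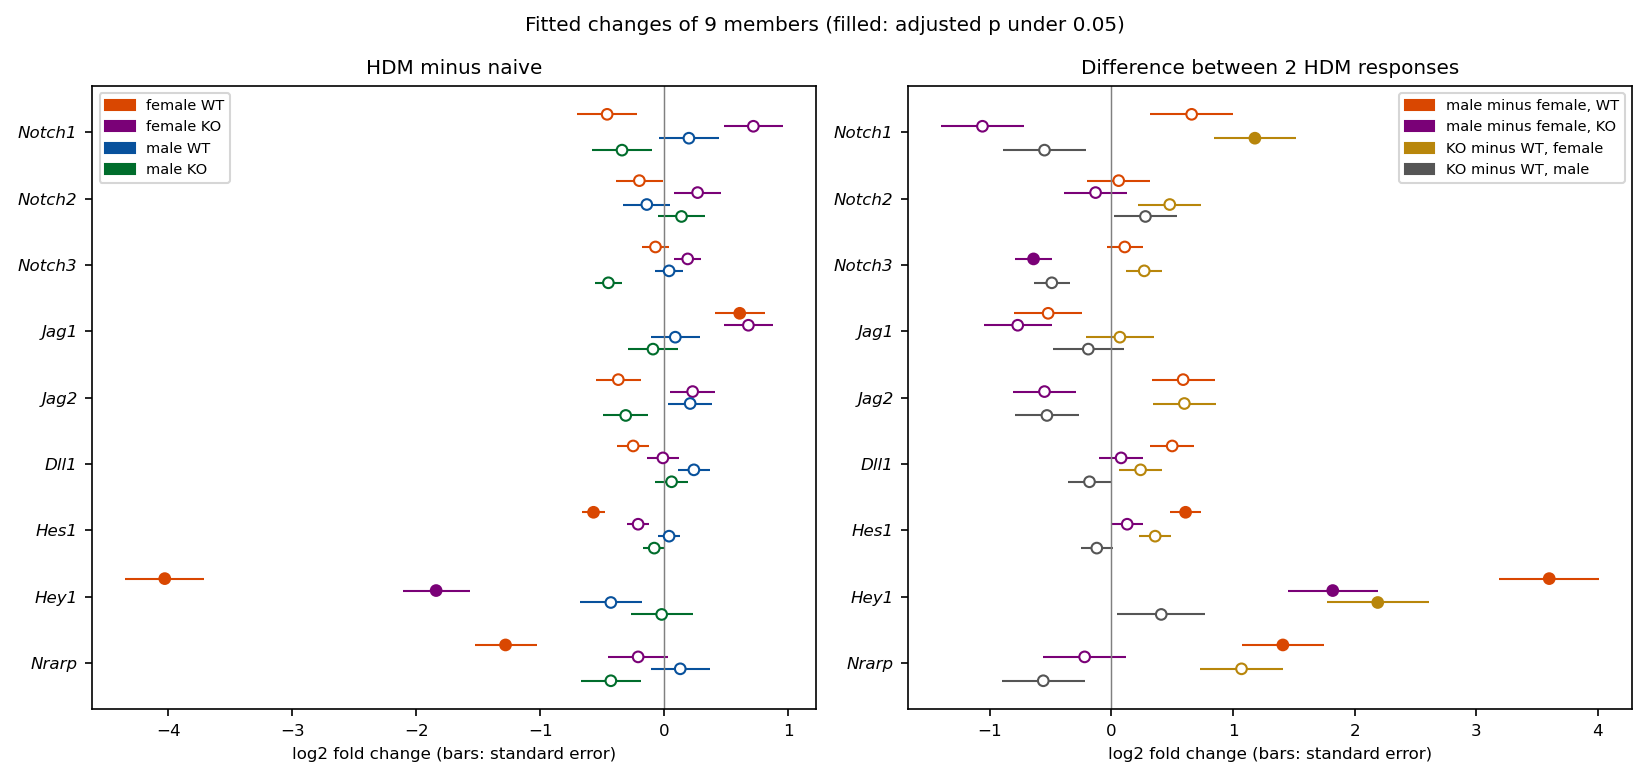
Log2 fold changes (x axis) with standard errors (bars) of 9 members (y axis, Heyl left out because it is near the floor of counts) for the 4 HDM responses on the left and the 4 differences between responses on the right, KO as labelled. Filled points have an adjusted p under 0.05. On the left, the Hey1 responses of -4.03 and -1.84 in the female groups lie farthest from 0.

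Male and female cultures were then compared directly. When naive, 0 members differed between the sexes in edgeR, in WT (0.100% of all genes did) or in cultures labelled KO (0.188%). The counts at an unadjusted p under 0.05 were 0 in WT and 3 in those labelled KO, and DESeq2 called 0 in both. Over all 15993 genes 1969 and 1585 were below that limit, and DESeq2 called 204 and 216. With HDM, 7 of the 10 members differed in WT, 6 higher and 1 lower in the male, where 41.6% of all genes differed. Hey1 was higher in the male by 4.14 ± 0.32 (SE) on the log2 scale (30.2 and 49.4 against 2.66 and 1.80 CPM; edgeR, adjusted p = 3.08e-06). Nrarp (1.25 ± 0.25, adjusted p = 0.00209), Jag2 (0.92 ± 0.19, adjusted p = 0.00217), Dll1 (0.64 ± 0.13, adjusted p = 0.00195) and Hes1 (0.56 ± 0.09, adjusted p = 0.000577) were also higher in the male. These 5 calls held with any 1 library left out. Notch1 was higher in the male by 0.82 ± 0.24 (edgeR, adjusted p = 0.0189), and this call was lost without male WT HDM replicate 1 (0.76, adjusted p = 0.0747), without female WT HDM replicate 2 (0.39, adjusted p = 0.0801) and with the compared libraries alone (0.82, adjusted p = 0.125). Jag1 was lower in the male (-0.61 ± 0.20, adjusted p = 0.0298), which was lost without male WT HDM replicate 1 (-0.38, adjusted p = 0.218), female WT HDM replicate 1 (-0.54, adjusted p = 0.115) or replicate 2 (-0.67, adjusted p = 0.0734), and with the compared libraries alone (-0.61, adjusted p = 0.0578).

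Among HDM cultures labelled KO, 5 members differed between the sexes, 1 higher and 4 lower in the male, where 25.3% of all genes differed. Hey1 was again higher in the male (51.0 and 58.7 against 9.60 and 8.88 CPM, log2 difference 2.57 ± 0.28, SE; edgeR, adjusted p = 0.000131). The receptors Notch1 (119 and 132 against 283 and 326 CPM, -1.27 ± 0.25, adjusted p = 0.00326) and Notch3 (58.1 and 60.2 against 113 and 114 CPM, -0.94 ± 0.11, adjusted p = 0.000194) were lower in the male. So was Jag1 (60.6 and 65.4 against 134 and 150 CPM, -1.17 ± 0.20, adjusted p = 0.00181). In each of these 4 genes the male and female libraries were well apart, and the calls held with any 1 library left out. Nrarp was lower in the male (4.53 and 5.33 against 9.73 and 8.88 CPM, -0.91 ± 0.24, adjusted p = 0.0177), but its call was lost without either male replicate (-0.80 and -1.04) or either female replicate (-0.83 and -0.98, adjusted p 0.0551 to 0.119 over the 4). Notch1 and Nrarp were thus higher in the male in WT and lower in the male in cultures labelled KO. The difference between these 2 sex differences was not tested.

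When naive, no member was called different between the genotypes as labelled. In both sexes 0 members passed in edgeR, 0 were below an unadjusted p of 0.05 and 0 were called by DESeq2, and 0% of all genes passed in each sex. Of all 15993 genes, 203 in the female and 867 in the male were below that unadjusted p. With HDM, 6 members differed in the female, all higher in the cultures labelled KO than in WT, where 29.2% of all genes differed. These were Hey1 (log2 difference 2.04 ± 0.33, SE; edgeR, adjusted p = 0.00132), Nrarp (1.43 ± 0.25, adjusted p = 0.00201), Notch1 (1.37 ± 0.25, adjusted p = 0.00229), Jag2 (0.75 ± 0.19, adjusted p = 0.0116), Notch3 (0.45 ± 0.11, adjusted p = 0.0103) and Hes1 (0.42 ± 0.09, adjusted p = 0.00662). The first 3 held with any 1 library left out. Without female WT HDM replicate 2 the calls of Jag2 (0.51, adjusted p = 0.12), Notch3 (0.30, adjusted p = 0.112) and Hes1 (0.31, adjusted p = 0.0789) were lost and 3 members passed. Those of Jag2 (0.73, adjusted p = 0.0659) and Notch3 (0.44, adjusted p = 0.0585) were also lost without replicate 2 labelled KO, and that of Hes1 (0.31, adjusted p = 0.0602) without replicate 1 labelled KO. In the male, 0 members passed in edgeR and 0% of all genes did. There 4 members were below an unadjusted p of 0.05, as were 2897 of all 15993 genes. DESeq2 called 562 of all genes and 1 member, Notch3 (59.1 CPM on average in HDM cultures labelled KO against 89.1 CPM in WT HDM; log2 difference -0.59 ± 0.11, SE; edgeR, adjusted p = 0.159). Among the same female HDM libraries, Lman1 was 66.6 and 78.1 CPM in those labelled KO and 117 and 101 CPM in WT (-0.59 ± 0.44, SE; edgeR, adjusted p = 0.331).

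**Figure D3:**
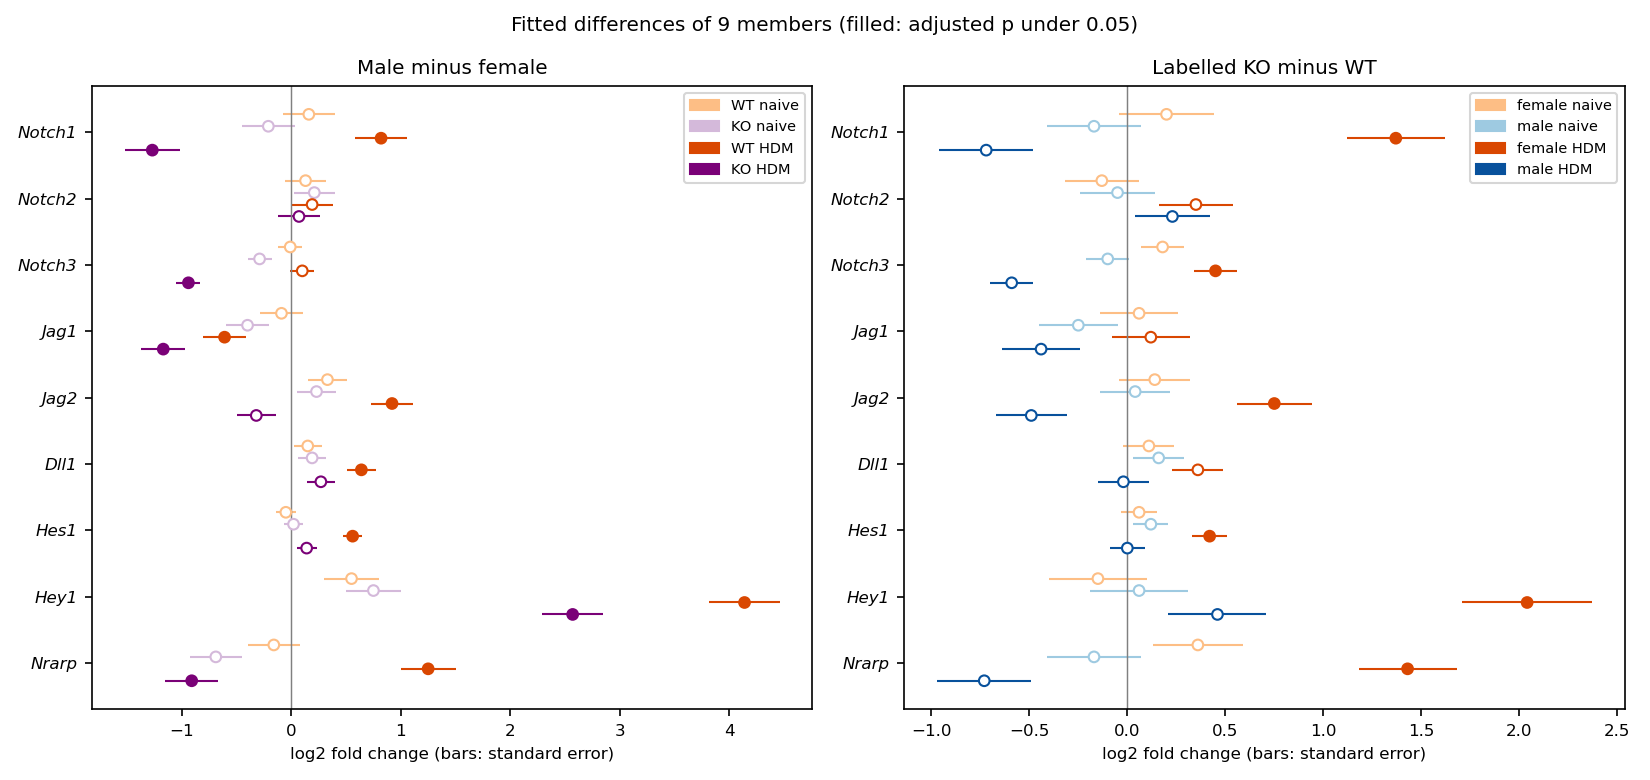
Log2 differences (x axis) with standard errors (bars) of 9 members (y axis, Heyl left out) for male minus female cultures on the left and cultures labelled KO minus WT on the right. Filled points have an adjusted p under 0.05 and occur only with HDM, 7 in WT and 5 in cultures labelled KO between the sexes and 6 between the genotypes in the female.

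The order of the 8 groups differed from member to member. By group mean, Notch1 was highest in female HDM cultures labelled KO (304 CPM), whose libraries lay above all others, and lowest in female WT HDM (118 CPM), whose libraries overlapped those of the next group, male HDM labelled KO (126 CPM). For Notch3 the lowest group was male HDM labelled KO (59.1 CPM) with both libraries below the rest, and the highest was female HDM labelled KO (113 CPM). Neighbouring groups of Notch2, from 131 to 176 CPM, overlapped at every step but 1. The top of the Jag1 order was held by female HDM labelled KO (142 CPM) and female WT HDM (130 CPM), which overlapped each other and lay above the libraries of the remaining groups. Jag2 ran from 100 CPM in female WT HDM to 190 CPM in male WT HDM, and Dll1 had its lowest and highest means in the same groups. For Hes1, Hey1, Nrarp and Dll1 alike, female WT HDM was the lowest group and did not overlap with the next. Hey1 and Hes1 varied together over the 16 libraries (Pearson r = 0.894), as did Notch1 with Nrarp (0.767), whereas Hey1 and Jag1 ran in opposite directions (r = -0.811). These coefficients are descriptions, since the libraries share groups and the female HDM groups set most of the spread.

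Beyond the 10 members, 46 other genes of the pathway were listed, of which 41 passed the filter on low counts. In the female WT response to HDM 18 of the 41 passed, 8 higher and 10 lower, with a median log2 fold change of -0.11, a count close to the 43.1% of all genes that passed. Dlk2, a non-canonical ligand, fell from 8.83 and 7.48 CPM to 2.21 and 2.04 CPM (-1.94 ± 0.20, SE; edgeR, adjusted p = 2.18e-05). Neurl1b, a ubiquitin ligase of the Neuralized family that acts on ligands, fell from 42.6 and 33.7 CPM to 10.6 and 6.16 CPM (-2.18 ± 0.37, adjusted p = 0.000679). Of the Fringe glycosyltransferases, which set which ligands a receptor responds to, Rfng fell from 37.8 and 34.0 CPM to 16.5 and 17.1 CPM (-1.10 ± 0.10, adjusted p = 8.88e-06), while Lfng rose from 11.5 and 11.7 CPM to 18.9 and 18.3 CPM (0.68 ± 0.25, adjusted p = 0.0451). The Lfng call was lost without any 1 of the 4 libraries and with library size scaling alone (0.60 to 0.70, adjusted p 0.0608 to 0.153). Poglut1, which adds O-glucose to Notch receptors, rose from 50.3 and 53.9 CPM to 76.9 and 81.1 CPM (0.60 ± 0.08, adjusted p = 0.000107), and Dtx4, a Deltex ubiquitin ligase, from 46.2 and 50.1 CPM to 96.8 and 107 CPM (1.08 ± 0.09, adjusted p = 5.1e-06). Hes6, a Hes family member that antagonizes Hes1, rose from 65.9 and 64.5 CPM to 96.1 and 95.9 CPM (0.56 ± 0.17, adjusted p = 0.0183), a call that was lost without any 1 of the 4 libraries (0.54 to 0.57, adjusted p 0.0603 to 0.0812). Dner, a ligand-like gene, passed too (adjusted p = 0.00669), from 15 and 16 counts to 1 and 0 counts, for which no fold is given, and lost the call without HDM replicate 2 (adjusted p = 0.055).

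Grouped by role, 3 of the 10 receptor cleavage genes passed in the female WT response (2 higher, 1 lower), as did 3 of the 5 glycosylation genes (2 higher, 1 lower), 5 of the 12 trafficking genes (2 higher, 3 lower) and 4 of the 8 genes of the nuclear complex (1 higher, 3 lower). These counts are to be read against the 43.1% of all genes, and no role was tested for a difference from it. In female cultures labelled KO, 3 of the 41 passed, against 10.4% of all genes. These were Dtx4 (46.4 and 51.8 to 75.4 and 88.7 CPM, 0.74 ± 0.09, SE; edgeR, adjusted p = 0.000783), Rfng (38.5 and 38.6 to 28.0 and 26.4 CPM, -0.51 ± 0.10, adjusted p = 0.00744) and Dlk2 (9.12 and 10.9 to 5.53 and 6.19 CPM, -0.77 ± 0.18, adjusted p = 0.0205), in the same directions as in WT. The Dlk2 call was lost without any 1 of the 4 libraries (-0.89 to -0.64, adjusted p 0.063 to 0.129), and that of Rfng without naive replicate 1 or HDM replicate 2 (-0.51 to -0.46, adjusted p 0.0619 to 0.0862). DESeq2 called 6 of the 41 in this comparison and 2106 of all 15993 genes. In male cultures 0 of the 41 passed in edgeR and in DESeq2 in either response, with 0 in WT and 2 in those labelled KO at an unadjusted p under 0.05. Over all 15993 genes those unadjusted counts were 665 and 857.

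The interaction of sex and HDM in WT passed for 9 of the 41 (5 higher, 4 lower), close to the 24.2% of all genes. Neurl1b (male minus female response 2.36 ± 0.50, SE, log2; edgeR, adjusted p = 0.00572), Dlk2 (2.16 ± 0.27, adjusted p = 0.000229) and Rfng (1.23 ± 0.14, adjusted p = 0.000123) fell in the female and had the higher response in the male. Dtx4 (-1.03 ± 0.13, adjusted p = 0.000227) and Poglut1 (-0.57 ± 0.11, adjusted p = 0.00332) rose in the female and had the lower response in the male. These 5 calls held in each of 15 alternative fits. Fbxw7 (-0.53, adjusted p = 0.0147), Rbpj (-0.46, adjusted p = 0.0244) and Dtx2 (0.46, adjusted p = 0.0306) passed as well. Fbxw7 lost the call without male naive replicate 2, female naive replicate 1 or female HDM replicate 2 (-0.52 to -0.43, adjusted p 0.0518 to 0.0656). Rbpj lost it with the compared libraries alone and without male naive replicate 1, male HDM replicate 2, either female naive replicate or female HDM replicate 2 (-0.49 to -0.33, adjusted p 0.0576 to 0.101). Dtx2 lost it without the filter, with the compared libraries alone and without male naive replicate 2, male HDM replicate 1, female naive replicate 1 or female HDM replicate 2 (0.35 to 0.48, adjusted p 0.0654 to 0.114). Among cultures labelled KO, 1 of the 41 passed, against 3.56% of all genes, and it was Dtx4 (-0.72 ± 0.13, adjusted p = 0.014), and its call was lost without male naive replicate 1, either male HDM replicate, female naive replicate 1 or female HDM replicate 2 (-0.76 to -0.60, adjusted p 0.0525 to 0.0843). The interaction of labelled genotype and HDM in the female passed for 4 of the 41, close to the 11.2% of all genes. These were Neurl1b (1.88 ± 0.50, adjusted p = 0.036), Dlk2 (1.17 ± 0.27, adjusted p = 0.0206), Rfng (0.59 ± 0.14, adjusted p = 0.0215) and Ncstn, a subunit of gamma-secretase (-0.45 ± 0.11, adjusted p = 0.0239). All 4 calls were lost without WT naive replicate 1, WT HDM replicate 2, naive replicate 1 labelled KO or HDM replicate 2 labelled KO. Over the fits that lost the call, values ran from 1.55 to 2.04 for Neurl1b, 1.05 to 1.11 for Dlk2, 0.52 to 0.64 for Rfng and -0.46 to -0.41 for Ncstn (adjusted p 0.0523 to 0.155).

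**Figure D4:**
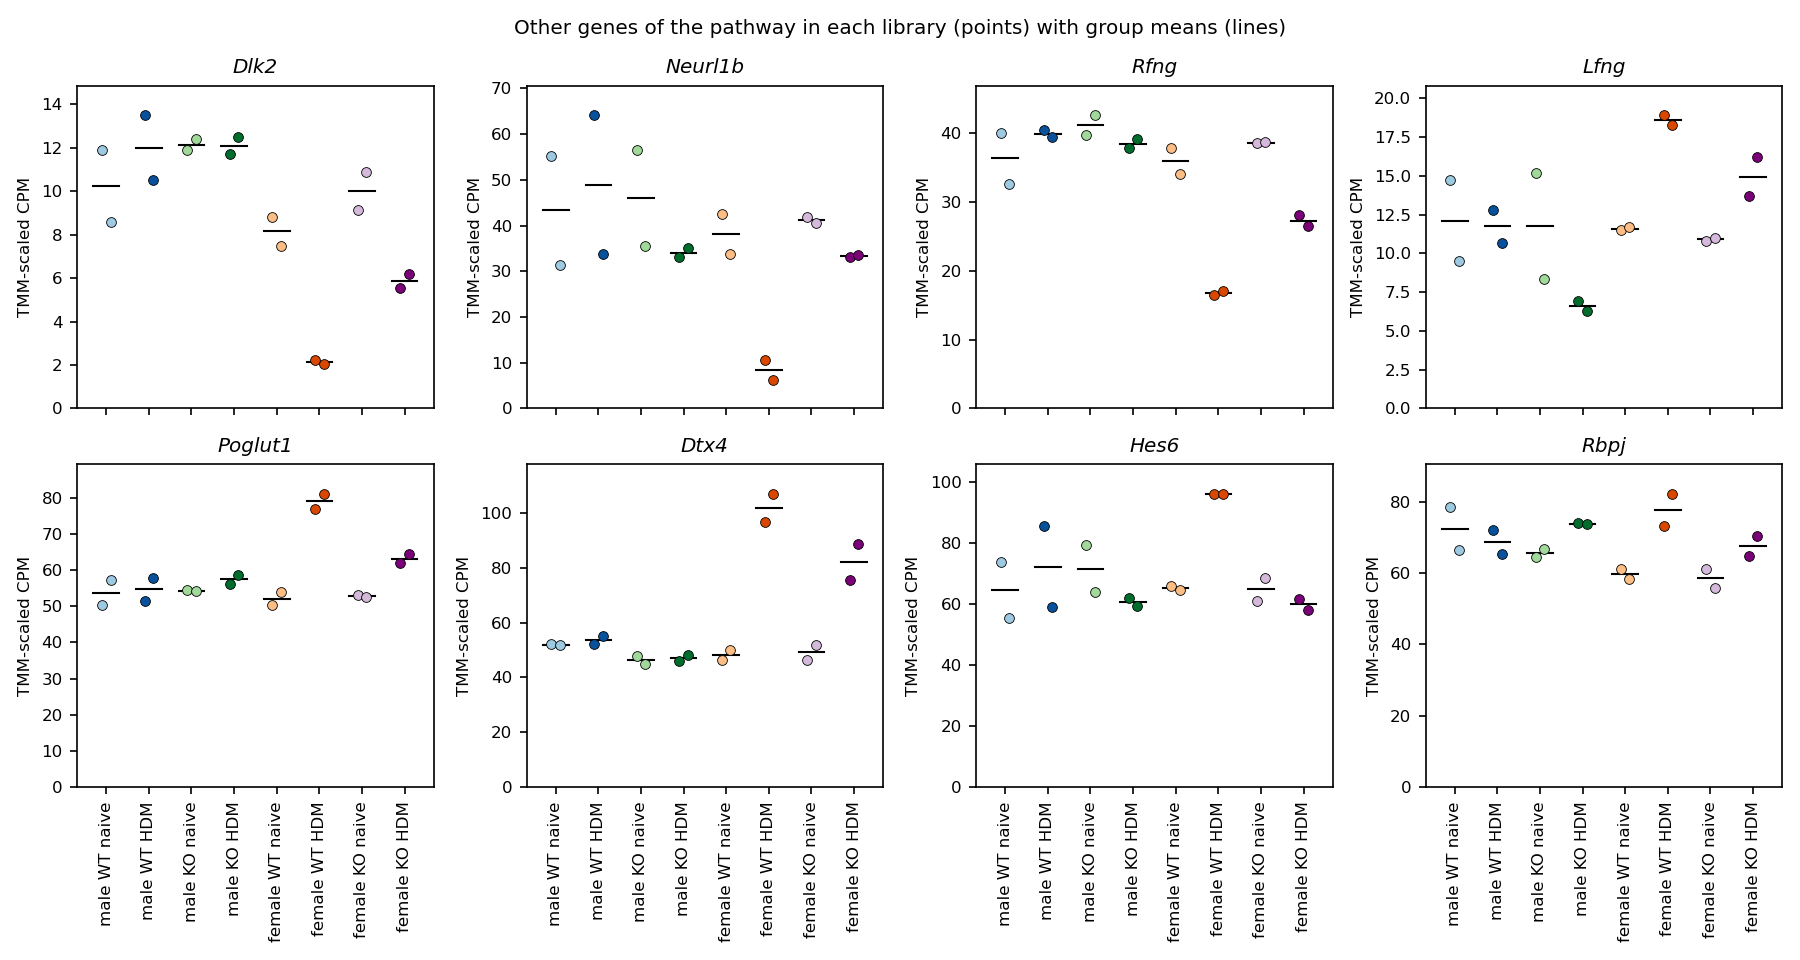
TMM-scaled CPM (y axis, from 0) of 8 other genes of the pathway in the 8 groups (x axis, KO as labelled), with a point for each library and a line for the mean of the 2 libraries. In female WT HDM, Dlk2, Neurl1b and Rfng are lowest and Lfng, Poglut1, Dtx4 and Hes6 highest.

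Markers of the airway cell types moved in the same libraries as the members. In the female WT response, 5 of 5 goblet cell markers, 4 of 5 club cell markers, 3 of 5 basal cell markers and 3 of 6 ciliated cell markers passed, all lower, where 43.1% of all genes passed. The basal and ciliated counts were near that share. Summed goblet markers were 140 to 168 CPM in female WT naive and 3.83 to 4.03 CPM in female WT HDM, and summed club markers were 13100 to 17300 and 3760 to 4650 CPM. Summed basal markers were 5990 to 7290 CPM when naive and 2040 to 3980 CPM with HDM. In female cultures labelled KO, 4 of 5 goblet, 3 of 5 club and 2 of 6 ciliated markers passed, all lower, where 10.4% of all genes passed. Summed ciliated markers were 118 to 139 CPM when naive and 59.5 to 65.1 CPM with HDM there, and 101 to 139 and 87.8 to 96.5 CPM in female WT. Foxj1 made up most of these sums. In female WT it held 69.5 and 89.4 CPM when naive and 79.1 and 86.6 CPM with HDM. In female cultures labelled KO it held 76.7 and 90.3 CPM when naive and 44.8 and 47.0 CPM with HDM. The median log2 fold change over the 6 ciliated markers was -2.05 in female WT and -1.42 in female cultures labelled KO. Of the basal markers labelled KO, 0 of 5 passed in edgeR or DESeq2, with 0 at an unadjusted p under 0.05. Their sum was 6540 to 7520 CPM when naive and 8480 to 9940 CPM with HDM. Basal markers were thus low in female WT HDM and not in female HDM labelled KO, while goblet and club markers were low in both. In the fibroblast list 2 of 6 passed in female WT, both higher. Of 7 smooth muscle and pericyte markers 6 were tested, and 0 passed in edgeR or DESeq2. Their median log2 fold change was -0.09. Among them Acta2, the smooth muscle actin, stood at 272 and 441 CPM in female WT HDM against 52.3 and 127 CPM when naive. The part of these cell types in the results for the members was not tested.

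**Figure D5:**
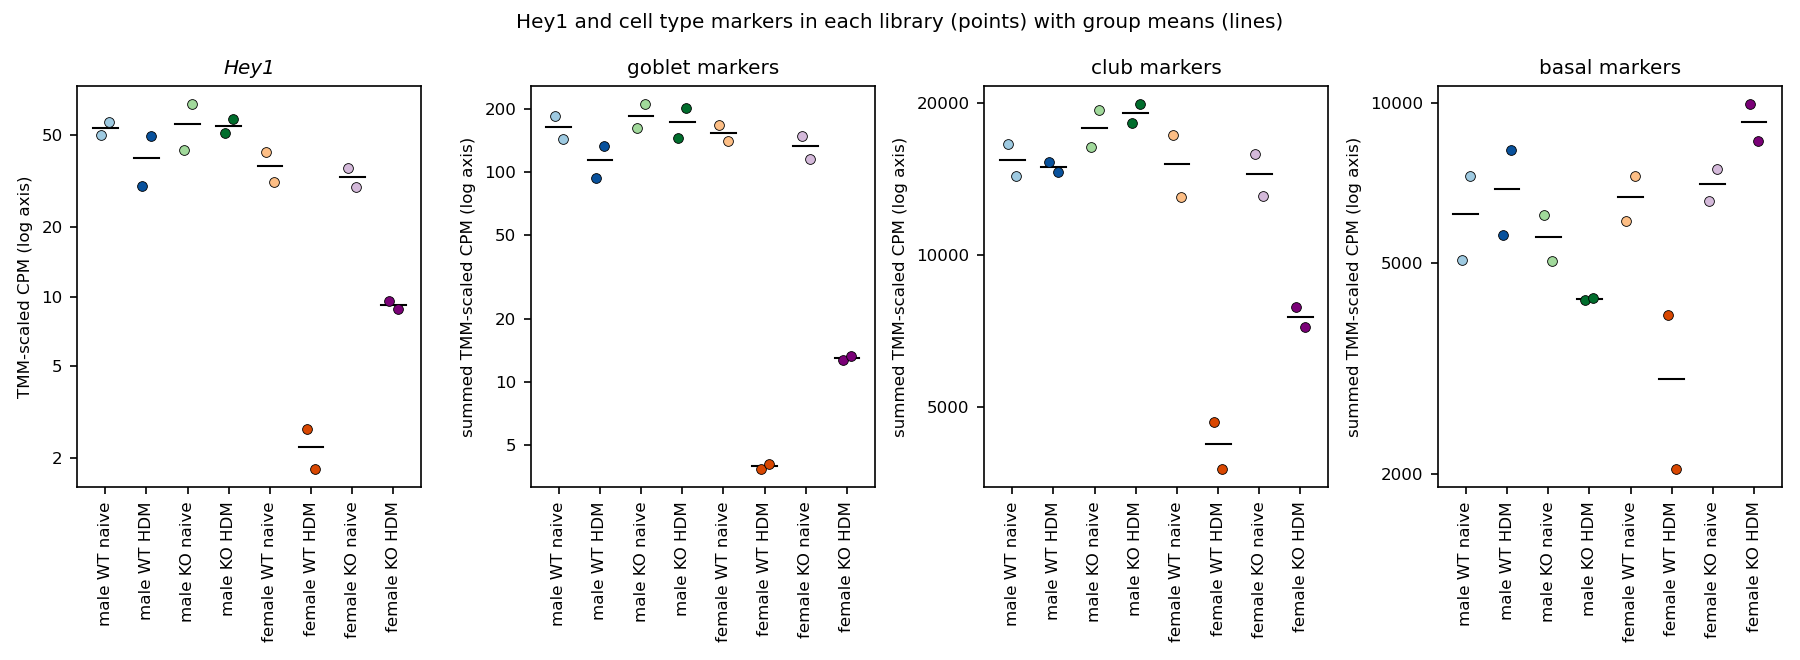
Hey1 and the summed levels of 5 goblet, 5 club and 5 basal cell markers (y axes, TMM-scaled CPM, log axes) in the 8 groups (x axis, KO as labelled), with a point for each library and a line for the mean of the 2 libraries. Hey1, goblet and club markers are lowest in the 2 female HDM groups, and basal markers are low in female WT HDM (2040 to 3980 CPM) and not in female HDM labelled KO (8480 to 9940 CPM).

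For Hey1, Notch1, Nrarp and Jag1, the 4 members with the widest range of group means, the genes outside the pathway with the most similar levels over the 16 libraries were found by Pearson's r of log2(CPM + 1). For Hey1 these were Pon1 (r = 0.996), Ltf (0.992) and Panct2 (0.992). Those most like Notch1 were Zbtb7c (0.940), Efnb1 (0.933) and Nectin1 (0.927). Nrarp was matched by Zfp282 (0.955), Phyhip (0.935) and Spink5 (0.922), and Jag1 by Nav1 (0.948), Rtkn (0.947) and Dusp7 (0.944). The coefficients are descriptions over libraries that share groups, and they carry no test.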

How the data were processed

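The deposited values were unnormalized read counts by Ensembl identifier, held in 1 table that covers the 16 MTEC libraries. Per the labels, mRNA was enriched and amplified by PCR after random priming. The submitters' processing notes name Trimmomatic 0.36, STAR 2.5.2b, featureCounts, Subread 1.5.2, DESeq2 and GRCm38, with no annotation release or strand setting. Here 49056 of 49315 identifiers were matched to GENCODE M21, and the rest carried 0.0106% of counts. Counts were fitted with edgeR 4.0.16 in R 4.3.3 (filterByExpr, TMM, quasi-likelihood model of the 8 group means, 15993 genes tested, two-sided). The common biological coefficient of variation was 0.142. Benjamini-Hochberg adjustment ran over all tested genes of each of 16 comparisons, and calls were made at an adjusted p under 0.05. A library with 3 counts or fewer was taken as at the floor, which covers counting error only. Replicates of every group differed beyond counting noise.

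Alternatives were DESeq2 1.42.0, a replicate block, a fit to the compared libraries alone, upper-quartile or library size scaling, omission of the filter, a minimum of 10 counts per library, and each library left out in turn. The fit was tested on simulated data for the female WT response, where 103 of 110 genes planted at 4-fold, 62 of 90 at 2-fold and 6 unchanged genes were called among 15594. Every simulated gene had the same coefficient of variation of 0.142, and only 200 genes changed. The real data differ in both, so these rates need not hold for them. The members and lists were chosen with earlier results of these data known. Named genes were the members, Lman1, up to 8 called pathway genes with the largest change in each HDM response and interaction, and the 3 most similar genes (mean log2 CPM of at least 2) for each of 4 members. Marker genes were named outside that rule, after their values were seen. Other steps used Python 3.11.15 with pandas 2.3.3, numpy 2.4.6 and matplotlib 3.10.9.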

Additional observations from a re-analysis of the deposited data

Results flagged for a closer look

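For 7 results the HDM response itself differed between sexes or labelled genotypes by the interaction test in edgeR. In WT the male minus female difference in response was 3.60 for Hey1, 1.41 for Nrarp and 0.61 for Hes1 on the log2 scale, higher in the male for all 3. In cultures labelled KO it was 1.82 for Hey1 and -0.64 for Notch3, where sex and the uneven Lman1 level cannot be told apart. In the female, the labelled KO minus WT difference in response was 2.19 for Hey1 and 1.18 for Notch1. It was 2.67 for Lman1 itself (edgeR, adjusted p = 0.0238), so HDM response and Lman1 level cannot be told apart there. With 2 libraries a group, no group was large enough to be searched for single outlying samples.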

How the results depend on the processing

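Of 30 member changes that passed the test, 0 changed direction under any alternative, and 18 kept the call under every one. Without the filter on low counts the number of members called rose from 4 to 7 in the female WT response, from 1 to 3 in the female response labelled KO, and from 0 to 3 in the male response labelled KO. In the same order, calls over all genes went from 6887 of 15993 to 6967 of 29397, from 1664 to 2717 and from 0 to 705. Without the filter, naive sex differences among members went from 0 to 2 in WT and from 0 to 3 in those labelled KO. The male genotype difference with HDM went from 0 to 6, and the interactions of sex and HDM from 3 to 8 in WT and from 2 to 5 in those labelled KO. In the same order, calls over all genes went from 16 to 644, 30 to 859, 0 to 1896, 3866 to 4454 and 569 to 1977. Interactions of labelled genotype and HDM went from 2 to 5 members in the female and from 0 to 3 in the male, and over all genes from 1798 to 3029 and from 0 to 668. The cause was not tested. DESeq2 gave 3 members in the female response labelled KO, 1 in the male genotype difference with HDM and 3 in both the sex interaction labelled KO and the female genotype interaction. Over all genes it called 2106, 562, 1192 and 2391 in that order. With only the compared libraries the member counts were 3 in the female response labelled KO and 1 in the female genotype interaction, and library size scaling alone gave 1 in the sex interaction labelled KO. Over all genes those fits called 2804, 1910 and 590.

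Same-numbered replicates did not share their deviations in every comparison (correlations of -0.29 to 0.61), so the numbers were not taken to pair the samples. With a replicate block, 6 members were called in the female WT response, Jag2 among them (-0.40, adjusted p = 0.0427), 2 in the female response labelled KO, with Jag1 (0.69, adjusted p = 0.0175), and 5 in the sex interaction in WT, with all 30 calls kept. Over all genes the block called 7298, 2150 and 4429 in that order. Crossing the numbers, chosen after seeing the data, gave 1, 0 and 7 in the female response labelled KO, the naive sex difference labelled KO and the female genotype difference with HDM.

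Leaving out a library gave 3 to 6 members in the female WT response, 3 to 7 in the female genotype difference with HDM, 2 to 6 in the sex interaction in WT, 0 to 2 in that labelled KO and 0 to 5 in the female genotype interaction. The lone culture of a group was then assumed to vary like the others. Of 24 changes named among other pathway genes, 11 kept the call under every alternative and 0 reversed. Depth limits Heyl, with 3 counts or fewer in 8 libraries.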
